A study of Homo sapiens with 20 samples.

Results

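The genes of the integrated stress response that act through ATF4, together with the unfolded protein response of the endoplasmic reticulum (ER), were followed through surface epithelium (SE) differentiation of human embryonic stem cells (hESC) with and without FOXO4 or SP6. A total of 32 genes were chosen by symbol, with earlier results of these data known, of 31155 gene identifiers in the tables. An amino acid/ATF4 arm of 23 genes and an ER chaperone arm of 9 genes were described separately. The cells were H1, an established hESC line. In 10 groups of 2 libraries each, 20 libraries of RNA were sequenced. Wild-type hESC without differentiation were compared with wild-type cells at day 3 of SE differentiation, the initiating stage. Knockdown by shRNA, a hairpin RNA processed to a silencing RNA, was aimed at FOXO4, a forkhead transcription factor, or at SP6, a zinc finger transcription factor. The knockdown cells were compared at day 3 and at day 7, the maturing stage, with cells treated with a scramble shRNA. Each knockdown and day had its own scramble libraries. All shRNA cells, scramble included, were under SE differentiation. The question was what FOXO4 and SP6 do in that differentiation. The labels do not say whether a shRNA group was 1 clone or a pool, nor whether the replicates were separate cultures, so p-values measure only the spread between these libraries.

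As background, cells that lack amino acids or carry unfolded protein in the ER phosphorylate the translation factor eIF2alpha. General translation then falls, while ATF4 mRNA is translated more, so ATF4 is set largely at the level of protein. ATF4 turns on genes that import and make amino acids, and also DDIT3, TRIB3 and CHAC1. In the ER, the sensor IRE1 (the product of ERN1) splices XBP1 mRNA, and the sensor ATF6 is cleaved to an active factor. Both raise chaperones such as HSPA5 and genes of ER-associated degradation. The gene-level values here show neither the phosphorylation of eIF2alpha, nor the splicing of XBP1, nor ATF4 protein.

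The letters near the start sites of the members are shown first. RefSeq promoter windows of 300 bases (250 before the start and 50 after it, build GRCh38.p14) were at hand for 27 of the 32 members, in 40 windows, since some genes have more than 1 start. They were searched on both strands for 4 motifs. The C/EBP-ATF response element (TGATGNAA), bound by ATF4 with a partner, was present in 3.62% of all 35116 windows and in those of ATF3, ASNS, SLC3A2, CHAC1 and HERPUD1. The ER stress response element (CCAAT and CCACG with 9 bases between them), bound by ATF6 with NF-Y, was present in 0.0769% of all windows and in those of HSPA5, HSP90B1, XBP1 and CRELD2. Its shorter form II (ATTGG and CCACG with 1 base between them) was in 0.0541% of all windows and in those of HERPUD1 and SDF2L1. The unfolded protein response element (TGACGTGG) was in 0.729% of all windows and in 0 of the 40. Its reverse complement begins with the CCACG that ends both ER stress elements, so these motifs can overlap. A match is a description of letters and not a bound site. The 6 windows printed here were chosen after the values were seen, because their genes carry the contrasts between arms and between knockdowns described further on. They are read 5′ to 3′ along the gene, with the fixed letters of each motif in capitals. The ASNS window lies at chr7:97872359-97872658, minus strand, the CHAC1 window at chr15:40953221-40953520, plus strand, the HSPA5 window at chr9:125241294-125241593, minus strand, the CRELD2 window at chr22:49918384-49918683, plus strand, the HERPUD1 window at chr16:56931892-56932191, plus strand, and the SDF2L1 window at chr22:21642052-21642351, plus strand.
ASNS: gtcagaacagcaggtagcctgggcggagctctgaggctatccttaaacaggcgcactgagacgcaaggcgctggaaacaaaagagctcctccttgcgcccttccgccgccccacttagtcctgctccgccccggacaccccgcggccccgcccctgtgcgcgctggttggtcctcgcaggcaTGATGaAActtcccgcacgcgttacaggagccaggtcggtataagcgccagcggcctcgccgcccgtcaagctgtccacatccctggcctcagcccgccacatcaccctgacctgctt
CHAC1: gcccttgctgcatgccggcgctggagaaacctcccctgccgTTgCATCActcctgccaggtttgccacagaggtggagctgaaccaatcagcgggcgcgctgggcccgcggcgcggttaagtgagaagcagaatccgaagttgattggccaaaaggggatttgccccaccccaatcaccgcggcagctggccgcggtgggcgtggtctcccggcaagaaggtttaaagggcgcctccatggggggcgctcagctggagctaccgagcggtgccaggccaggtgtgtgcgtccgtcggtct
HSPA5: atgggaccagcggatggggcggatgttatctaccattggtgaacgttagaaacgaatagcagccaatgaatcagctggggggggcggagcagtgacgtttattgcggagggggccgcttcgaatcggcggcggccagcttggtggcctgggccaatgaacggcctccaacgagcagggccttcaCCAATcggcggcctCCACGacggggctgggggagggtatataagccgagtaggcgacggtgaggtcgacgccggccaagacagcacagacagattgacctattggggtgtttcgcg
CRELD2: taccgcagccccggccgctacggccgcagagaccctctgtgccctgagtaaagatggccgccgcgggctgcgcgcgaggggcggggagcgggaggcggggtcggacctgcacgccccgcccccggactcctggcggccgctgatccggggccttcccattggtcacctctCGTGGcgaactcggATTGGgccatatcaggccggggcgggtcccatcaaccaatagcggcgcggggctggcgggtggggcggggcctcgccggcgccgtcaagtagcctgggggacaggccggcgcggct
HERPUD1: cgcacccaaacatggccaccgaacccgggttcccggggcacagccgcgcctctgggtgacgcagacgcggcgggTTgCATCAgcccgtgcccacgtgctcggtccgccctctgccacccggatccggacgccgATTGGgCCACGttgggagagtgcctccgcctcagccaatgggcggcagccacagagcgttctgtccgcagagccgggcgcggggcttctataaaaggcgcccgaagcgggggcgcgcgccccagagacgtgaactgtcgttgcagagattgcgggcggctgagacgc
SDF2L1: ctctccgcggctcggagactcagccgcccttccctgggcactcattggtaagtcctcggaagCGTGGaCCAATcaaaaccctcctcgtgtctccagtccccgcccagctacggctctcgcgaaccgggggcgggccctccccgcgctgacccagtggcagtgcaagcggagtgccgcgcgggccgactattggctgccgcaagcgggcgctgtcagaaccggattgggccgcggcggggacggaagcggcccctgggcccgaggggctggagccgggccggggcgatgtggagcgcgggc

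Values are normalized read counts, which the authors scaled within each of 5 tables of 4 libraries. Changes are treated minus control on the log2(value + 1) scale, given with their SE from limma over 2 libraries per group. Testing was limited to genes whose table mean reached 10, and a gene counted as called at a Benjamini-Hochberg adjusted p below 0.05 over all genes tested in the table. A single value of 2 libraries against 2 could not give an exact two-sided permutation p below 0.333, so every call rests on limma's pooling of the spread across genes. Recovered reads ran from 14937104 to 30328846 per library. The targets came first as a check. FOXO4 stood at 1875 and 2026 in the day 3 scramble libraries and at 322 and 319 with shFOXO4, and at 1206 and 1009 against 35.5 and 35.5 at day 7. SP6 stood at 1790.3 and 1939 against 203 and 322 with shSP6 at day 3, and at 4077 and 3040.1 against 85.7 and 93.1 at day 7. Both knockdowns were thus visible in their own libraries. SP6 also fell with shFOXO4, with changes of -1.55 at day 3 and -3.37 at day 7. FOXO4 fell with shSP6 at day 7 (-2.49) and was not called at day 3 (-0.061). Between 55.8% and 72.6% of all tested genes were called in a comparison. Of the members, NUPR1, a small stress-response chromatin protein, was not listed in the shFOXO4 day 3 table and was under the filter in the other 4. Its highest values were 13.2 and 13.5, with shSP6 at day 7, against 2.28 and 3.32 in the scramble libraries. The other 31 were tested in every table. Pseudogenes of some members were listed beside them, with PSPHP1 at up to 339, HSPA5P1 at up to 134 and ATF4P3 at up to 85.4 in any library. Reads shared with such copies could not be traced. In no comparison did the groups of a called member overlap. With 2 libraries against 2, an unchanged gene would show this with a probability of 0.333, so it adds little to a call. The share among all called genes was not computed.

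**Figure D1:**
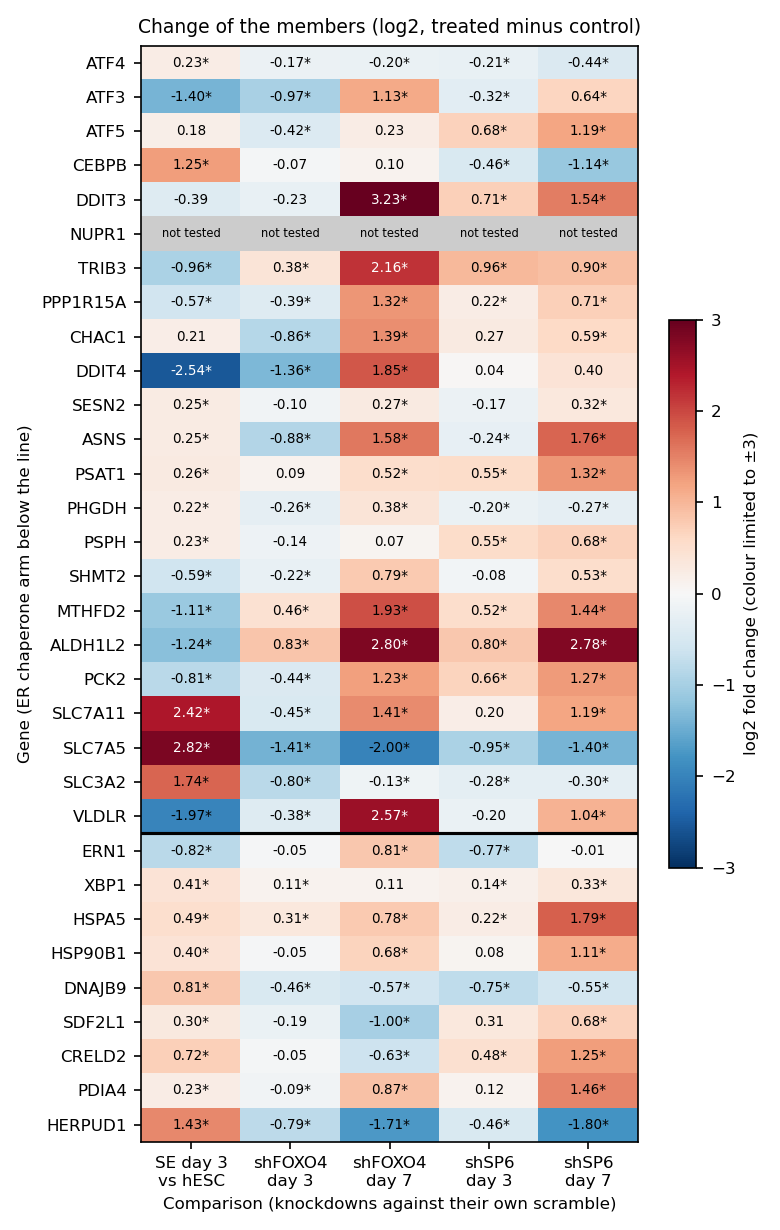
Log2 change (treated minus control, 2 libraries against 2) of each member in the 5 comparisons, with an asterisk for an adjusted p below 0.05 and grey for NUPR1, which was not tested. The amino acid/ATF4 arm stands above the line, with 16 of 22 tested members called higher in either knockdown at day 7, and the ER chaperone arm below it.

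At SE day 3, genes of the amino acid/ATF4 arm split into 2 directions, while the ER chaperone arm moved almost as a whole. Of 22 tested members of the ATF4 arm, 10 were higher than in hESC and 9 lower, where 35.2% of all tested genes were called higher and 37.0% lower (72.2% in either direction). The median change was 0.19, beside -0.02 over all genes. The 3 amino acid transporters gave the highest changes of the arm. SLC7A5, the light chain of the large neutral amino acid transporter LAT1, went from 2867 and 3154 to 21649 and 20796, 7.05-fold higher (2.82 ± 0.046). SLC3A2, the heavy chain that SLC7A5 and SLC7A11 share, went from 3902 and 3991 to 13605 and 12802 (1.74 ± 0.04). SLC7A11, the cystine importer, went from 281 and 381 to 1766 and 1737 (2.42 ± 0.11). In each of the 3, both day 3 libraries stood far above both hESC libraries.

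The transcription factors did not move together. ATF4 itself stood at 7172 and 7349 in hESC and at 8722 and 8358 at day 3, a small rise of 0.23 ± 0.037. CEBPB, a C/EBP factor that pairs with ATF4, rose by 1.25 ± 0.16. ATF3, an early stress-induced repressor, fell from 594 and 519.8 to 248 and 178 (-1.40 ± 0.14). DDIT3, which encodes the pro-apoptotic factor CHOP, was low in both groups, at 23.1 and 28.2 and at 17.9 and 20.8, and was not called, and neither was ATF5, a relative of ATF4 (0.18 ± 0.18). Of the stress effectors, DDIT4, an inhibitor of mTORC1, fell most, from 1380.4 and 1264 to 231 and 221 (-2.54 ± 0.078), 5.85-fold lower. TRIB3, a pseudokinase that restrains ATF4, fell from 192 and 188 to 101 and 93.5 (-0.96 ± 0.14). PPP1R15A, which brings a phosphatase to eIF2alpha, fell by 0.57. CHAC1, which degrades glutathione, was at 279 and 285 and at 328 and 323 and was not called, and SESN2, a sestrin that lowers mTORC1 activity, rose by 0.25. VLDLR, a lipoprotein receptor, fell from 2800.4 and 2681 to 763 and 637 (-1.97 ± 0.074).

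The enzymes divided by pathway. Serine is made by PHGDH, PSAT1 and PSPH in turn, and these rose by 0.22, 0.26 and 0.23. PSAT1 went from 3472 and 3796 to 4378 and 4324. ASNS, asparagine synthetase, went from 2282 and 2353 to 2821 and 2701 (0.25 ± 0.046). These rises were small, and the groups did not overlap in any of the 4. The mitochondrial one-carbon enzymes fell instead, SHMT2 by 0.59, MTHFD2 by 1.11 and ALDH1L2 by 1.24, and so did PCK2, the mitochondrial phosphoenolpyruvate carboxykinase, by 0.81. Called members of the arm had adjusted p of 3.45e-14 to 0.0262 when higher and of 1.15e-11 to 5.53e-05 when lower. The call of SESN2 was lost without SE day 3 replicate 2, and that of PSPH without hESC replicate 1 or SE day 3 replicate 1.

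In the ER chaperone arm, 8 of 9 members rose at SE day 3, with a median of 0.41 and adjusted p of 1.59e-08 to 0.00446. Of all tested genes, 35.2% were called higher and 37.0% lower, with a median of -0.02. HERPUD1, a membrane protein of ER-associated degradation, changed most, from 258 and 285 to 786 and 686 (1.43 ± 0.092). DNAJB9, the HSPA5 cochaperone that attenuates IRE1, went from 230.4 and 235 to 419 and 397 (0.81 ± 0.094). HSPA5, the HSP70 chaperone of the ER lumen, went from 11063 and 10662 to 15372 and 15222 (0.49 ± 0.034). Both day 3 libraries stood above both hESC libraries for all 3. CRELD2, an ER-resident protein induced by ER stress, rose by 0.72, HSP90B1, the ER form of HSP90, by 0.40, SDF2L1, a cofactor of HSPA5 chaperone cycles, by 0.30, and PDIA4, a protein disulfide isomerase, by 0.23. XBP1 went from 1732 and 1769 to 2353 and 2293 (0.41 ± 0.047). The sensor ERN1 was the exception and fell by 0.82. In these libraries the 8 surface epithelium markers were all higher at day 3, with summed values of 104595 to 111305 against 12753 to 12796, and 5 of 6 pluripotency markers were lower (68647 to 72182 against 113952 to 114613). All 4 amnion markers were higher (7437 to 7981 summed, against 94.5 to 103), and so were the 3 tested mesenchymal markers. Of 13 mitochondrially encoded mRNAs, 10 were higher. Together the 13 took 3.02% to 3.38% of the counts at day 3 and 2.23% to 2.41% in hESC. Their part was not tested. Of the 5 keratinocyte markers, 2 were tested. TP63, at 0 in both hESC libraries, was higher (6.49), and the other was not called. KRT5 and KRT14, markers of basal keratinocytes, were at 0 in all 4 libraries. The endoderm markers SOX17 and FOXA2 were tested in no table. They were not listed in the shFOXO4 day 3 table and were under the filter in the other 4. In bulk RNA, fewer cells of a type and less RNA per cell cannot be told apart.

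With shFOXO4 at day 3, most of the ATF4 arm was lower than in the scramble cells. Of 22 tested members, 14 fell and 3 rose, where 30.8% of all tested genes were called lower and 31.8% higher, and the median was -0.32, beside 0.0071 over all genes. SLC7A5 fell from 20975 and 19899 to 7832 and 7519, 2.66-fold lower (-1.41 ± 0.038). Its partner SLC3A2 fell by 0.80 and SLC7A11 by 0.45, so all 3 transporters were lower. DDIT4 fell from 180.2 and 187 to 66.9 and 75.1 (-1.36 ± 0.14) and ATF3 from 354 and 282 to 156 and 166 (-0.97 ± 0.11). ASNS fell from 2441 and 2344 to 1267 and 1325 (-0.88 ± 0.051), and CHAC1 from 209 and 188 to 113 and 105 (-0.86 ± 0.13). For each of these genes both knockdown libraries stood below both scramble libraries. ATF4 was lower by less, at 7900.0 and 7943 against 7219 and 6861 (-0.17 ± 0.039). Falls were also called for PCK2 (-0.44), ATF5 (-0.42), PPP1R15A (-0.39), VLDLR (-0.38), PHGDH (-0.26) and SHMT2 (-0.22).

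The 3 members that rose with shFOXO4 at day 3 included mitochondrial folate enzymes. ALDH1L2, which oxidizes formyl-tetrahydrofolate, went from 48.1 and 36.7 to 79.7 and 71.7 (0.83 ± 0.20). MTHFD2, which carries one-carbon units towards formate, went from 1982 and 1910.0 to 2691 and 2663 (0.46 ± 0.047), and TRIB3 from 106 and 108 to 151 and 129.6 (0.38 ± 0.14). PSAT1 stood at 4368 and 4121 and at 4492 and 4569 and was not called, nor were PSPH (-0.14), SESN2 (-0.10) and CEBPB (-0.068). DDIT3 was low, at 28.7 and 27.3 in the scramble libraries and at 30.8 and 18.1 with shFOXO4, and the groups overlapped. Adjusted p ran over 2.75e-31 to 0.00593 for the falls and 1.98e-11 to 0.0176 for the rises. The call of TRIB3 was lost without scramble replicate 1 or shFOXO4 replicate 1.

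In the ER chaperone arm, 2 members were higher with shFOXO4 at day 3, 3 lower and 4 not called (median -0.054), counts of 9 that stand beside 31.8% and 30.8% of all tested genes. HSPA5 rose from 19124 and 18897 to 23429.7 and 23805 (0.31 ± 0.036) and XBP1 from 2228 and 2255 to 2383 and 2471 (0.11 ± 0.047). HERPUD1 fell from 882 and 827 to 493 and 495 (-0.79 ± 0.068), and DNAJB9 from 596 and 597 to 418 and 452 (-0.46 ± 0.075). PDIA4 fell by 0.094, and ERN1 (-0.046), HSP90B1 (-0.045), SDF2L1 (-0.19) and CRELD2 (-0.054) were not called. The count of higher members was 1 instead of 2 without scramble replicate 1, scramble replicate 2 or shFOXO4 replicate 2, each of which ended the call of XBP1, and the call of PDIA4 was lost without scramble replicate 1 or 2 or shFOXO4 replicate 1. Markers moved in the same libraries. All 6 pluripotency markers were higher with shFOXO4 (summed 113195 to 115657 against 71258 to 74458). All 8 surface epithelium markers were lower (31212 to 32281 against 106491 to 110323), as were all 4 amnion markers (876 to 948 against 8673 to 9308), and their part in the changes of the 2 arms was not tested.

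By day 7 the ATF4 arm stood the other way. With shFOXO4, 16 of 22 tested members were higher than in the scramble cells and 3 lower, where 37.1% of all tested genes were called higher and 35.4% lower. The median was 1.18, beside 0.022 over all genes. DDIT3 rose most, from 17.2 and 15 to 155 and 164 (3.23 ± 0.25), 9.91-fold higher. VLDLR rose from 291 and 389 to 1955 and 2045 (2.57 ± 0.12) and TRIB3 from 98.4 and 151 to 515 and 585 (2.16 ± 0.19). ALDH1L2 rose from 7.64 and 36.0 to 113 and 136 (2.80 ± 0.56). Its scramble libraries differed widely from each other, but neither reached the knockdown libraries. All 5 feedback and stress effectors rose, DDIT4 by 1.85, CHAC1 by 1.39 (from 129.9 and 175 to 374 and 420.1), PPP1R15A by 1.32 and SESN2 by 0.27 beside TRIB3. ATF3 rose by 1.13.

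Of the 8 enzymes, 7 rose with shFOXO4 at day 7. MTHFD2 rose by 1.93 ± 0.075, PCK2 by 1.23 ± 0.082, SHMT2 by 0.79 ± 0.064 and PHGDH by 0.38 ± 0.057. ASNS went from 601 and 749.7 to 1885 and 2134 (1.58 ± 0.11), and PSAT1 from 1857 and 2144 to 2914 and 2828 (0.52 ± 0.076). PSPH (0.073) was not called, nor were ATF5 (0.23) and CEBPB (0.098). The transporters parted. SLC7A11 rose by 1.41 ± 0.12, while SLC7A5 fell from 22360.2 and 20993 to 5418 and 5442 (-2.0 ± 0.054), 3.99-fold lower, and SLC3A2 fell by 0.13. ATF4 mRNA was lower too, at 9368 and 9786 against 8061 and 8609.7 (-0.20 ± 0.057). Adjusted p ran over 4.45e-08 to 0.0172 for the rises and 6.12e-09 to 0.0454 for the falls. Without scramble replicate 2 or shFOXO4 replicate 1 the falls numbered 1 instead of 3, as the calls of ATF4 and SLC3A2 were lost (that of SLC3A2 without any 1 of the 4 libraries), and the calls of ALDH1L2 (without shFOXO4 replicate 1 or 2) and SESN2 (without scramble replicate 2 or shFOXO4 replicate 2) were lost as well.

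In the ER chaperone arm, 4 members were higher with shFOXO4 at day 7 and 4 lower (median 0.11), close to the shares of 37.1% and 35.4% of all tested genes. Of the folding genes, HSPA5 rose from 10506 and 10950.4 to 18163 and 18608 (0.78 ± 0.052), HSP90B1 rose by 0.68 ± 0.05 and PDIA4 by 0.87 ± 0.05, and the sensor ERN1 rose by 0.81 ± 0.17. HERPUD1 fell from 1457 and 1348 to 426 and 428 (-1.71 ± 0.08), 3.28-fold lower. SDF2L1 fell from 573 and 632 to 279 and 324 (-1.0 ± 0.11), and CRELD2 fell by 0.63. HERPUD1 and SDF2L1 are the 2 members whose promoter windows, printed above, hold form II of the ER stress element. Among the genes with the long element, CRELD2 fell as well, while HSPA5 and HSP90B1 rose. A link between motif and change was not tested. DNAJB9 fell from 310.5 and 321 to 214 and 209 (-0.57 ± 0.12), and XBP1, at 1822 and 1949 and at 2011 and 2070.4, was not called. The call of CRELD2 was lost without shFOXO4 replicate 2 and that of ERN1 without shFOXO4 replicate 1. In the same libraries all 6 pluripotency markers were higher (115765 to 126327 summed, against 33397 to 39393), all 8 surface epithelium markers lower (44367 to 45908 against 165279 to 169799) and all 4 amnion markers lower (852 to 858 against 23437 to 23468). The 5 mesenchymal markers summed to 20453 to 22612 in the scramble libraries and to 166 to 191 with shFOXO4, where LUM and DCN were at 0. Of these 5, 3 were lower (COL3A1, LUM and DCN), TWIST1 was not called, and PDGFRA was higher (1.39). Mitochondrially encoded mRNAs took 7.17% to 7.47% of the counts in the scramble libraries and 5.56% to 6.0% with shFOXO4, and at most 3.38% in the libraries of the other tables. Their part in these changes was not tested.

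**Figure D2:**
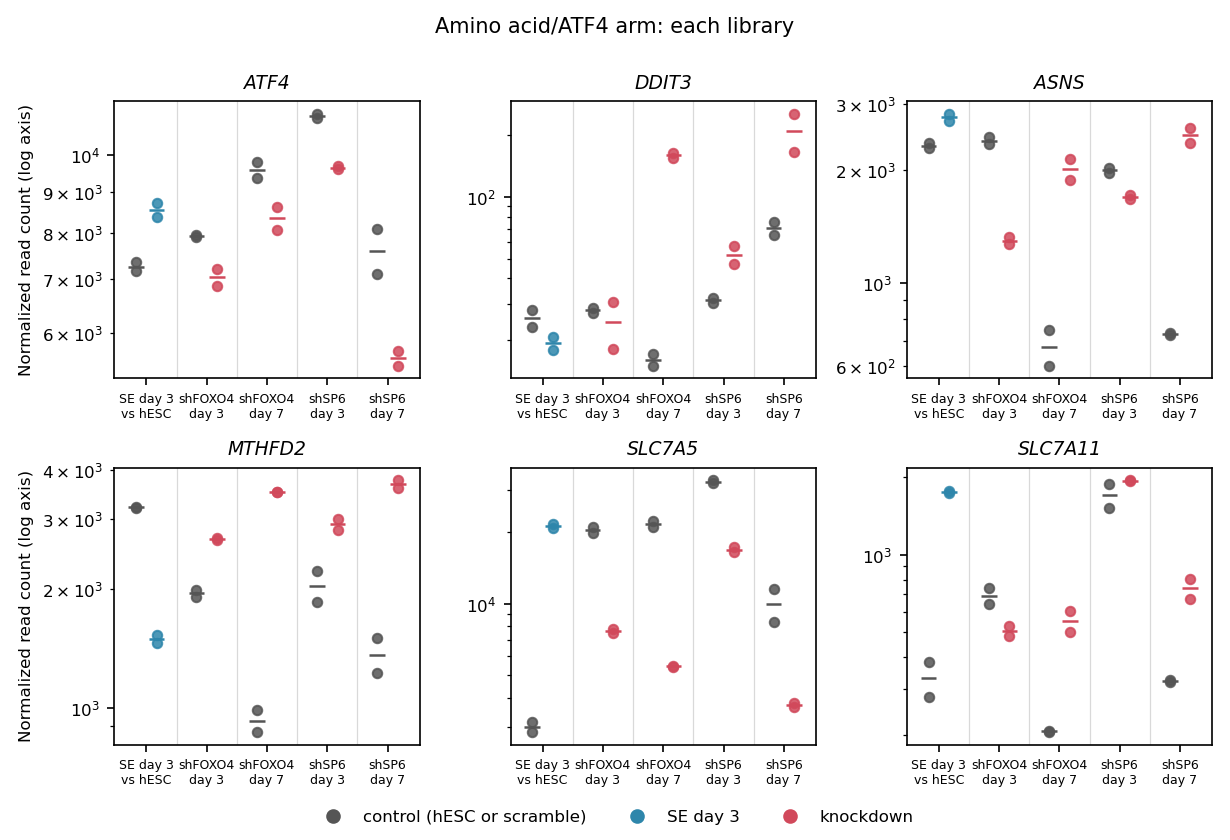
Normalized read counts (log axes that differ between panels) of 6 members of the ATF4 arm in each of the 20 libraries, with points for libraries and lines for group means. DDIT3, ASNS and MTHFD2 were higher in both day 7 knockdowns, SLC7A5 was lower in all 4, and ATF4 was lower in all 4 by at most 0.44 on the log2 scale.

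With shSP6 at day 3 no called member changed by more than 1 on the log2 scale. In the ATF4 arm 9 members rose and 7 fell, where 28.3% of all tested genes were called higher and 27.5% lower, with a median of 0.12, beside 0.0012 over all genes. TRIB3 rose from 105 and 134 to 229.6 and 236 (0.96 ± 0.15), and ALDH1L2 from 71.0 and 80.9 to 129 and 138 (0.80 ± 0.16). DDIT3 went from 32.2 and 30.3 to 46.9 and 57.4 (0.71 ± 0.23). In all 3, both shSP6 libraries stood above both scramble libraries. ATF5 rose by 0.68, PCK2 by 0.66, MTHFD2 by 0.52, PSPH by 0.55 and PPP1R15A by 0.22, and PSAT1 went from 4255 and 5064 to 6941 and 6695 (0.55 ± 0.076). SLC7A5 again fell most, from 33130.1 and 32101 to 16488 and 17301 (-0.95 ± 0.055). ATF4 stood at 11108 and 11240.5 against 9603 and 9673 (-0.21 ± 0.051), and ASNS at 2024 and 1964 against 1713 and 1670.3 (-0.24 ± 0.061), both lower. CEBPB fell by 0.46, ATF3 by 0.32, SLC3A2 by 0.28 and PHGDH by 0.20. CHAC1, at 284 and 357 and at 395 and 371, was not called, nor were DDIT4 (0.036), SESN2 (-0.17), SHMT2 (-0.077), SLC7A11 (0.20) and VLDLR (-0.20). Adjusted p ran over 8.63e-05 to 0.0293 for the rises and 2.43e-07 to 0.021 for the falls. The falls numbered 3 without shSP6 replicate 1 and 4 without shSP6 replicate 2, with the calls of ATF4, ASNS and PHGDH lost in both cases and that of ATF3 in the first, and the call of PPP1R15A was lost without either and that of DDIT3 without shSP6 replicate 2.

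In the ER arm 3 members rose and 3 fell with shSP6 at day 3 (median 0.12), beside 28.3% and 27.5% of all tested genes. HSPA5 went from 21385 and 22777 to 26206 and 25222 (0.22 ± 0.057), CRELD2 rose by 0.48 ± 0.086, and XBP1 went from 3049 and 3073 to 3387 and 3369.8 (0.14 ± 0.055). The falls were in ERN1, from 143 and 159.8 to 89.7 and 86.7 (-0.77 ± 0.15), in DNAJB9, from 568 and 578 to 338 and 341 (-0.75 ± 0.086), and in HERPUD1, from 1095 and 973 to 721 and 775 (-0.46 ± 0.082). HSP90B1 (0.083), SDF2L1 (0.31) and PDIA4 (0.12) were not called. The rises numbered 5 without scramble replicate 2, which added SDF2L1 and PDIA4, and the calls of XBP1 (without shSP6 replicate 1 or 2) and HSPA5 (without shSP6 replicate 1) were lost. Of the pluripotency markers 5 of 6 were higher (summed 109491 to 114162 against 69725 to 81450.0), and all 8 surface epithelium markers were lower (40069 to 47235 against 147202 to 165160.1), as were all 4 amnion markers (2169 to 2699.9 against 12752 to 18909.9). The 4 tested mesenchymal markers were lower too (all 5 summed 152 to 197 against 866 to 1055), and NES and PAX6 were higher (neural sum 9801 to 9925 against 7224 to 7746). Of 13 mitochondrially encoded mRNAs, 10 were lower, and together they took 1.83% to 2.36% of the counts in the scramble libraries and 1.52% to 1.60% with shSP6. Their part was not tested.

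With shSP6 at day 7, both arms were mostly higher. In the ATF4 arm 16 members rose and 5 fell, where 29.0% of all tested genes were called higher and 29.6% lower (58.6% in either direction), with a median of 0.70, beside -0.015 over all genes. Of the 8 enzymes, 7 rose. ALDH1L2 went from 17.1 and 19.9 to 134 and 131 (2.78 ± 0.24), ASNS from 726 and 735 to 2587 and 2359 (1.76 ± 0.085), and PSAT1 from 1988 and 2129 to 4884 and 5407 (1.32 ± 0.08). In these 3 genes the knockdown libraries were close to each other and far from the scramble libraries. MTHFD2 rose by 1.44, PCK2 by 1.27, PSPH by 0.68 and SHMT2 by 0.53, and PHGDH, the first enzyme of serine synthesis, fell by 0.27. DDIT3 rose from 75.1 and 65.3 to 254 and 165 (1.54 ± 0.23), TRIB3 from 184 and 227 to 440.0 and 333 (0.90 ± 0.17), and CHAC1 from 194 and 203 to 351 and 255 (0.59 ± 0.17). For each of them shSP6 replicate 1 was the higher of the 2 knockdown libraries, and both stood above the scramble libraries.

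ATF5 rose by 1.19, SLC7A11 by 1.19, VLDLR by 1.04, PPP1R15A by 0.71, ATF3 by 0.64 and SESN2 by 0.32, while DDIT4 (0.40) was not called. SLC7A5 fell from 11532 and 8374 to 3650.2 and 3810.2 (-1.40 ± 0.13), CEBPB from 598 and 521 to 275 and 234 (-1.14 ± 0.13), and ATF4 from 8089 and 7103 to 5708 and 5466 (-0.44 ± 0.081). SLC3A2 fell by 0.30. So ATF4 mRNA was lower in the same libraries in which most of the arm was higher. Adjusted p ran over 1.6e-07 to 0.0119 for the rises and 8.98e-06 to 0.0162 for the falls. The falls numbered 3 without shSP6 replicate 2, as PHGDH and SLC3A2 were no longer called. The calls of CHAC1, SESN2, SLC3A2 and VLDLR were lost without shSP6 replicate 1, and that of SLC3A2 also without scramble replicate 1.

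In the ER arm, 6 members rose with shSP6 at day 7 and 2 fell (median 0.68), beside 29.0% and 29.6% of all tested genes. HSPA5 went from 10907 and 10188 to 36803 and 36112, 3.46-fold higher (1.79 ± 0.072). PDIA4 rose by 1.46 ± 0.069, CRELD2 by 1.25 ± 0.13, HSP90B1 by 1.11 ± 0.071 and SDF2L1 by 0.68 ± 0.13. XBP1 went from 1585 and 1464 to 1949.9 and 1893 (0.33 ± 0.081). HERPUD1 fell from 1550.5 and 1344 to 447 and 385 (-1.80 ± 0.11), 3.48-fold lower, and DNAJB9 from 355 and 318 to 229 and 228 (-0.55 ± 0.13), and ERN1 (-0.01) was not called. Adjusted p ran over 5.4e-08 to 0.00511 for the 6 and 8.87e-07 to 0.00437 for the 2. In these libraries 5 of 6 pluripotency markers were higher and 1 lower (summed 120392 to 121669 against 74219 to 89165), all 8 surface epithelium markers were lower (30815 to 31735 against 167676 to 191882) and all 4 amnion markers were lower (1383 to 1418 against 7234 to 11539). The mesenchymal markers summed to 2983 to 6985 in the scramble libraries and to 129.9 to 142 with shSP6, with 4 of 5 lower and TWIST1 higher (1.05). The 3 neural markers summed to 6519 to 6737 and to 14378 to 15161, nearly all of it NES, which was higher (1.16), while PAX6 was not called and SOX1 was under the filter. Their part was not tested.

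**Figure D3:**
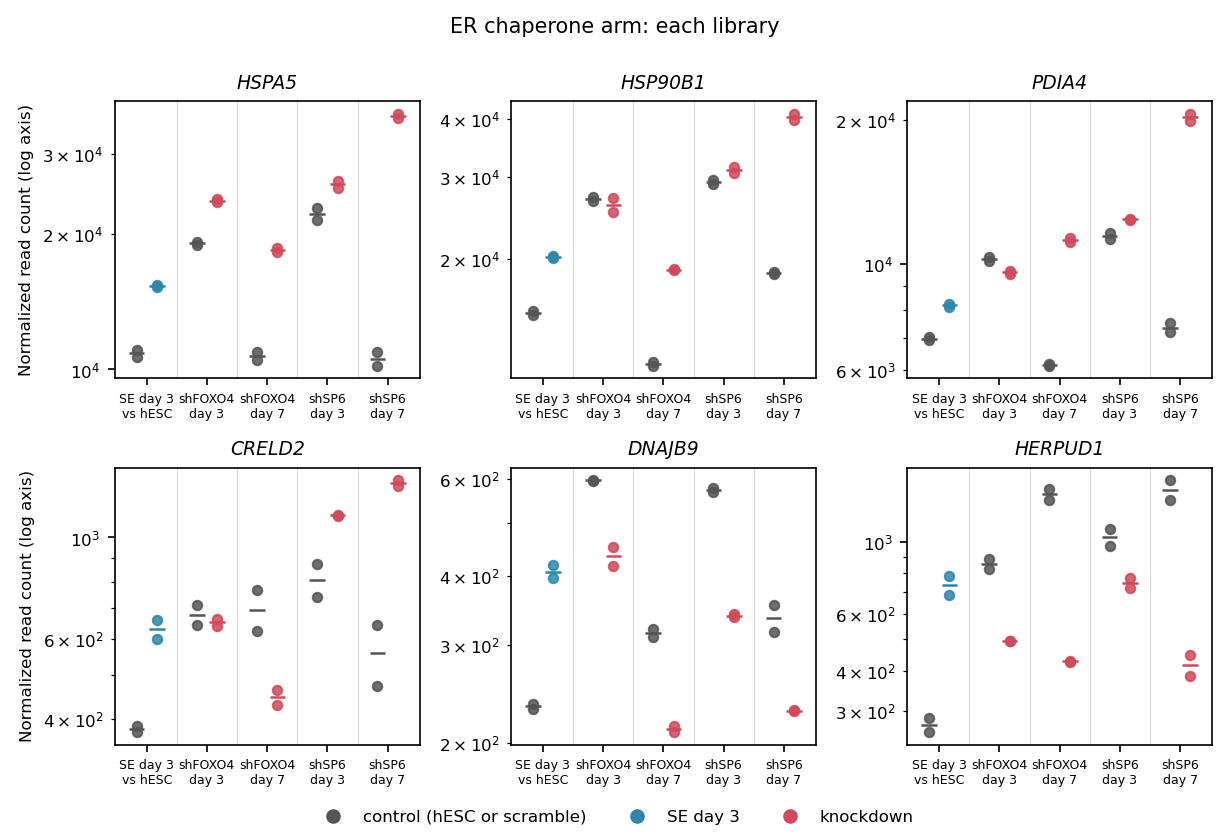
Normalized read counts (log axes that differ between panels) of 6 members of the ER chaperone arm in each of the 20 libraries, with points for libraries and lines for group means. HSPA5, HSP90B1 and PDIA4 were higher in both day 7 knockdowns, HERPUD1 and DNAJB9 were lower in all 4, and CRELD2 was lower with shFOXO4 and higher with shSP6 at day 7.

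The change of sign of the ATF4 arm between days was tested over the 8 libraries of both tables. For shFOXO4, the day 7 effect differed from the day 3 effect in 19 of 22 members, 18 of them towards higher at day 7, where 62.7% of all tested genes were called in this difference (32.1% higher and 30.7% lower). Adjusted p ran over 2.44e-10 to 0.0162. In 10 members a called fall at day 3 became a called rise at day 7. Among these the difference was 3.21 ± 0.14 for DDIT4, 2.95 ± 0.15 for VLDLR, 2.46 ± 0.13 for ASNS, 2.25 ± 0.21 for CHAC1 and 2.10 ± 0.22 for ATF3. It was 1.86 ± 0.15 for SLC7A11, 1.71 ± 0.15 for PPP1R15A, 1.67 ± 0.11 for PCK2, 1.01 ± 0.08 for SHMT2 and 0.64 ± 0.065 for PHGDH. SLC7A5 was the 1 member with a more negative effect at day 7 (-0.58 ± 0.066), and ATF4 (-0.03 ± 0.068), CEBPB (0.17 ± 0.16) and PSPH (0.22 ± 0.11) were not called. In the ER arm 7 of 9 differed, 4 towards higher and 3 towards lower at day 7. PDIA4 turned from a fall to a rise (0.97 ± 0.058), and HERPUD1 (-0.92 ± 0.10), SDF2L1 (-0.81 ± 0.17) and CRELD2 (-0.58 ± 0.14) moved down.

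For shSP6, the 2 days differed in 13 of 22 members of the ATF4 arm, 11 towards higher and 2 towards lower at day 7, where 35.1% of all tested genes were called (14.8% higher and 20.3% lower) (adjusted p 1.06e-07 to 0.0455). ASNS, with a difference of 1.99 ± 0.099, and ATF3, with 0.96 ± 0.19, went from a called fall to a called rise. ALDH1L2 (1.97 ± 0.26) and MTHFD2 (0.92 ± 0.15) were raised at both days and more at day 7, and the differences of TRIB3 (-0.061 ± 0.24) and DDIT3 (0.82 ± 0.32) were not called. In the ER arm 6 of 9 differed. HSPA5 (1.57 ± 0.091), PDIA4 (1.35 ± 0.082), HSP90B1 (1.03 ± 0.084), CRELD2 (0.78 ± 0.18) and ERN1 (0.76 ± 0.21) had higher effects at day 7, and HERPUD1 (-1.33 ± 0.15) a lower one.

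**Figure D4:**
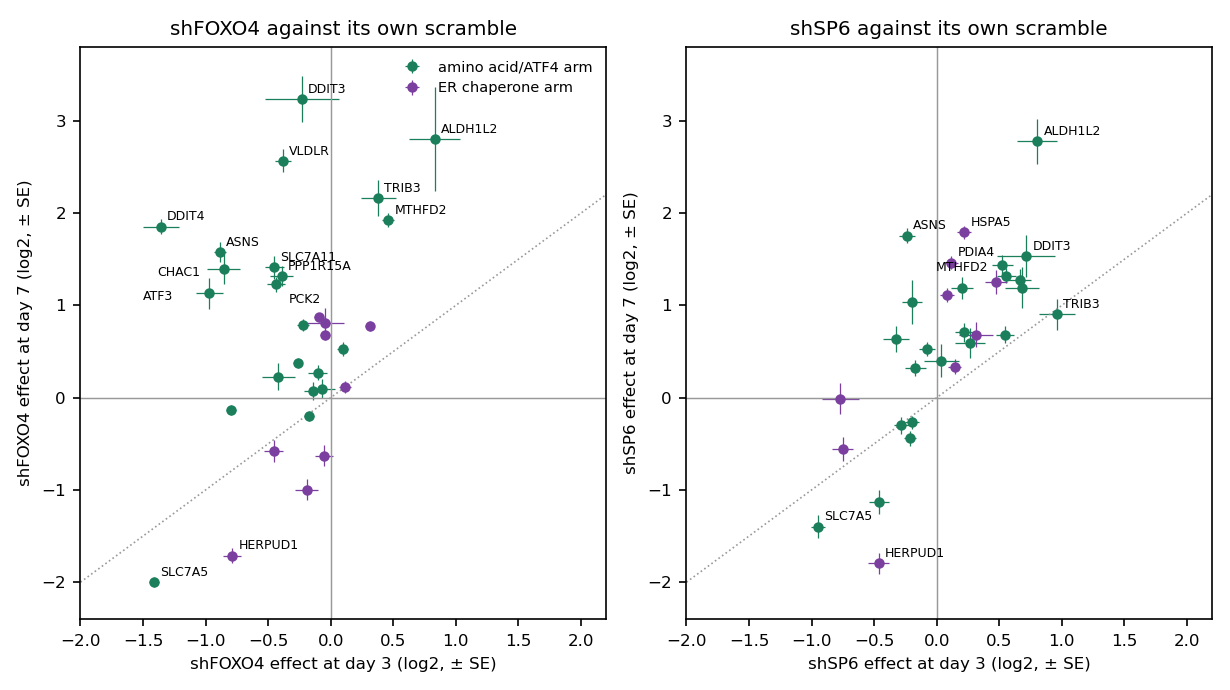
Log2 effect of each knockdown against its own scramble at day 3 (x) and at day 7 (y), 1 point per tested member, with SE bars and the line of equal effects dotted. With shFOXO4 most members of the ATF4 arm lie at upper left, with lower values at day 3 and higher values at day 7, and SLC7A5 and HERPUD1 lie at lower left in both panels.

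The 2 knockdowns were compared at the same day. At day 3 the effects differed in 14 of 22 members of the ATF4 arm, 13 of them higher with shSP6, where 36.8% of all tested genes were called (18.7% higher and 18.1% lower) (adjusted p 2.59e-06 to 0.0378). PCK2 (1.10 ± 0.12), ATF5 (1.10 ± 0.18) and PPP1R15A (0.61 ± 0.12) fell with shFOXO4 and rose with shSP6. DDIT4 (1.39 ± 0.19) and CHAC1 (1.12 ± 0.17), which fell with shFOXO4, were not called with shSP6, and these differences were called. In the ER arm 6 of 9 differed, but this count fell to 2 without scramble replicate 1 of the FOXO4 set and to 3 without its scramble replicate 2, shFOXO4 replicate 2 or shSP6 replicate 2. At day 3, 3 members of the ATF4 arm rose with both knockdowns (TRIB3, MTHFD2 and ALDH1L2), as did 18.5% of all genes tested in both tables. A further 6 fell with both (ATF4, ATF3, ASNS, PHGDH, SLC7A5 and SLC3A2), as did 19.3% of all genes.

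At day 7, 14 of the 22 tested members of the ATF4 arm rose with both knockdowns, where 21.5% of all genes tested in both tables did. They were ATF3, DDIT3, TRIB3, PPP1R15A, CHAC1, SESN2, ASNS, PSAT1, SHMT2, MTHFD2, ALDH1L2, PCK2, SLC7A11 and VLDLR. ATF4, SLC7A5 and SLC3A2 fell with both, as did 22.4% of all genes. The knockdowns had separate scramble libraries. The effects differed in 13 of 22 members (adjusted p 8.69e-05 to 0.019), where 49.0% of all tested genes were called (19.9% higher and 29.1% lower). Of these, 9 were lower with shSP6. DDIT3 (-1.70 ± 0.33), VLDLR (-1.53 ± 0.32), DDIT4 (-1.45 ± 0.23), TRIB3 (-1.26 ± 0.28) and CHAC1 (-0.80 ± 0.25) were among those with the higher effect of shFOXO4. Each effect is relative to its own scramble. DDIT3 stood at 17.2 and 15 in the scramble libraries of the FOXO4 set and at 75.1 and 65.3 in those of the SP6 set. With knockdown it stood at 155 and 164 and at 254 and 165. TRIB3 stood at 98.4 and 151 and at 184 and 227, and with knockdown at 515 and 585 and at 440.0 and 333. The sets were scaled separately, and these levels were not tested against each other. The 4 members with a more positive effect of shSP6 were ATF5 (0.97 ± 0.28), PSAT1 (0.80 ± 0.11), PSPH (0.61 ± 0.13) and SLC7A5 (0.60 ± 0.16). SLC7A5 fell less with shSP6 (-1.40) than with shFOXO4 (-2.0). PHGDH rose with shFOXO4 and fell with shSP6 (-0.64 ± 0.088). For ALDH1L2 the effects were 2.80 and 2.78, and the difference was -0.027 ± 0.69, with an SE too large to call them alike.

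In the ER arm, 6 of 9 members differed between the knockdowns at day 7 (adjusted p 2.66e-06 to 0.0099). Of all tested genes, 49.0% were called in this difference (19.9% higher and 29.1% lower). CRELD2 (1.88 ± 0.19) and SDF2L1 (1.68 ± 0.18) fell with shFOXO4 and rose with shSP6. HSPA5 (1.01 ± 0.085), PDIA4 (0.59 ± 0.081) and HSP90B1 (0.44 ± 0.08) rose with both and more with shSP6. ERN1 was raised with shFOXO4 and had a lower effect with shSP6 (-0.82 ± 0.23). HERPUD1 and DNAJB9 fell with both, and their differences of -0.085 ± 0.14 and 0.022 ± 0.17 were not called. Among the 4 genes whose windows hold the long ER stress element, HSPA5 and HSP90B1 rose with both knockdowns, CRELD2 went in opposite directions, and XBP1 was called with shSP6 and not with shFOXO4, a difference of 0.22 ± 0.10 that was not called. Of the 2 with form II, HERPUD1 fell with both and SDF2L1 fell with shFOXO4 and rose with shSP6.

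The knockdown changes were set beside those of wild-type differentiation, measured in other libraries. Of the 9 members of the ATF4 arm that fell at SE day 3, 9 rose and 0 fell with shFOXO4 at day 7 and 8 rose and 0 fell with shSP6. Among all genes that fell at SE day 3, 67.5% rose and 10.5% fell with shFOXO4 and 49.3% rose and 12.4% fell with shSP6. At day 3 of the knockdowns the same 9 stood otherwise, as 3 rose and 6 fell with shFOXO4, where 49.9% rose and 15% fell among all such genes. With shSP6 at day 3, 5 rose and 1 fell, beside 49.3% higher and 10.3% lower of all such genes. Of the 10 members that rose at SE day 3, 5 rose and 3 fell with shFOXO4 at day 7, and 5 rose and 5 fell with shSP6. Among all genes that rose at SE day 3, 13.4% rose and 66.4% fell with shFOXO4 and 12.8% rose and 56.2% fell with shSP6. In the day 3 knockdowns, 0 rose and 6 fell with shFOXO4 (all such genes 19.4% higher and 52.8% lower), and 2 rose and 6 fell with shSP6 (13.3% higher and 51.1% lower). At day 7, ATF4, SLC7A5 and SLC3A2 fell with both knockdowns, while ASNS, PSAT1, SESN2 and SLC7A11 rose with both, as they had in SE day 3 cells. In each knockdown the day 7 calls of SLC3A2 and SESN2 were lost on leaving out some libraries. Of the 8 ER members that rose at SE day 3, 3 rose and 4 fell with shFOXO4 at day 7, and 6 rose and 2 fell with shSP6 (HERPUD1 and DNAJB9 in both cases among those that fell). In the day 3 knockdowns, 2 rose and 3 fell with shFOXO4 and 3 rose and 2 fell with shSP6. The shares of all genes are those given for the genes that rose.

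Other genes of the pathways were described by counts, with the most changed called genes named at day 7. They are to be read beside the shares of all tested genes, which were 37.1% higher and 35.4% lower with shFOXO4 and 29.0% higher and 29.6% lower with shSP6 at day 7, 31.8% higher and 30.8% lower and 28.3% higher and 27.5% lower at day 3, and 35.2% higher and 37.0% lower at SE day 3. Of 20 cytosolic aminoacyl-tRNA synthetases, which charge tRNAs and many of which ATF4 is known to induce, 16 were higher and 2 lower with shSP6 at day 7 (median 0.53), with WARS1 (1.79) and AARS1 (1.23) highest. With shFOXO4 at day 7, 7 were higher and 6 lower (median -0.0049), with SARS1 (1.09) and AARS1 (0.84) highest and KARS1 (-0.91) and VARS1 (-0.46) lowest. Counts at day 3 were 15 higher and 1 lower with shFOXO4 (median 0.23) and 16 higher and 0 lower with shSP6 (median 0.34), and at SE day 3 they were 9 higher and 7 lower (median 0.12). With shFOXO4 at day 7 the shares of synthetases called were thus near those of all genes.

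Of 22 other amino acid supply and ATF4 target genes, 21 were tested in each table. With shFOXO4 at day 7, 10 were higher and 7 lower (median 0.042), with GDF15 (5.55) and CTH (2.17) highest and JDP2 (-1.64) and SLC6A9 (-1.32) lowest. With shSP6 at day 7, 9 were higher and 5 lower (median 0.20), with GDF15 (3.15) and CTH (1.85) highest and JDP2 (-1.43) and SLC38A2 (-1.20) lowest. GDF15, a secreted stress cytokine, stood at 338 and 307 in the scramble libraries and at 13892 and 16489.8 with shFOXO4. With shSP6 it stood at 8436 and 6497, against 628 and 1100.0. CTH makes cysteine from cystathionine. Day 3 counts for this list were 12 higher and 7 lower with shFOXO4 (median 0.16) and 7 higher and 5 lower with shSP6 (median 0.073), and at SE day 3 they were 12 higher and 8 lower (median 0.29). Of 10 genes of the eIF2alpha kinases and of eIF2B, the exchange factor that phosphorylated eIF2alpha blocks, 2 were higher and 5 lower with shFOXO4 at day 7, with EIF2B3 (1.07) and EIF2AK4 (0.49) highest and EIF2B4 (-1.04) and EIF2B1 (-0.79) lowest. With shSP6 at day 7, 5 were higher and 2 lower, with EIF2B3 (1.18) and EIF2AK4 (1.08) highest and EIF2B1 (-0.40) and EIF2B5 (-0.33) lowest. For the kinase and eIF2B genes the day 3 counts were 5 higher and 2 lower with shFOXO4 (median 0.24) and 4 higher and 2 lower with shSP6 (median 0.13), and at SE day 3 they were 3 higher and 3 lower (median 0.068). EIF2AK3, which encodes the ER-bound kinase PERK, went from 304 and 272 to 406 and 458 with shSP6 at day 7 (0.58 ± 0.13) and was not called with shFOXO4 (0.097).

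Of 18 other ER folding genes, 13 were higher and 0 lower with shSP6 at day 7 (median 0.50), with FKBP14 (1.73) and MANF (1.06) highest. With shFOXO4 at day 7, 10 were higher and 4 lower (median 0.42), with FKBP14 (2.37) and ERO1B (2.18) highest and DNAJB11 (-1.07) and HYOU1 (-0.60) lowest. For the folding genes the day 3 counts were 5 higher and 6 lower with shFOXO4 (median -0.0098) and 4 higher and 5 lower with shSP6 (median -0.093), and at SE day 3 they were 11 higher and 3 lower (median 0.26). Of 17 genes of ER-associated degradation and translocation, 5 were higher and 7 lower with shFOXO4 at day 7 (median -0.16), with SEC24D (1.49) and EDEM1 (0.90) highest and DERL3 (-2.67) and DERL2 (-1.12) lowest. With shSP6, 6 were higher and 7 lower (median 0.035), with SEC24D (0.65) and SELENOS (0.49) highest and DERL3 (-2.23) and SPCS2 (-0.87) lowest. Among the degradation genes the day 3 counts were 4 higher and 8 lower with shFOXO4 (median -0.15) and 1 higher and 8 lower with shSP6 (median -0.15), and at SE day 3 they were 11 higher and 2 lower (median 0.32). DERL3, a derlin of the degradation channel, stood at 1815 and 2519 in the day 7 scramble libraries of the FOXO4 set and at 322 and 350.1 with shFOXO4. In the SP6 set it stood at 1149.8 and 1223 against 269.8 and 235. Of 8 regulators of the ATF6 branch, 2 were higher and 4 lower with shFOXO4 at day 7, with CREB3L1 (2.45) and CREB3L2 (0.29) highest and ATF6B (-0.93) and MBTPS1 (-0.50) lowest. With shSP6, 2 were higher and 5 lower, with CREB3L1 (0.96) and MBTPS2 (0.42) highest and CREB3L4 (-0.73) and CREB3L2 (-0.73) lowest. For the ATF6 branch the day 3 counts were 2 higher and 3 lower with shFOXO4 (median -0.13) and 0 higher and 6 lower with shSP6 (median -0.26), and at SE day 3 they were 4 higher and 3 lower (median 0.23). ATF6 itself fell by 0.42 with shFOXO4 and by 0.57 with shSP6 at day 7.

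**Figure D5:**
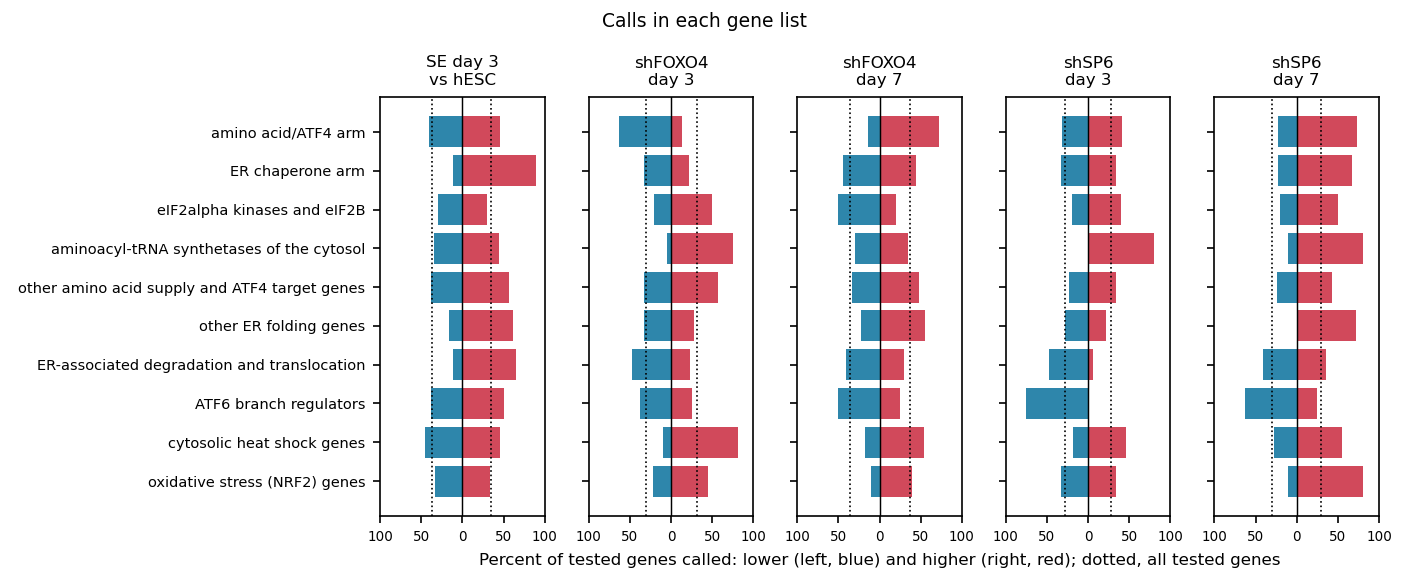
Percent of the tested genes of each list called higher (right) and lower (left) in each comparison, with dotted lines for all tested genes. At day 7 the ATF4 arm extends to the right in both knockdowns, with 16 of 22 called higher, and the aminoacyl-tRNA synthetases do so with shSP6.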

How the data were processed

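RNA of 20 libraries was sequenced (stranded mRNA kit, per the labels' protocols). Read trimming and counting settings are not given in the sources used here; hg19 and the tools DESeq2 1.20.0, RSEM 1.3.0, STAR 2.6.1 and Trimmomatic 0.39 stand in the submitters' processing notes. The deposited signal values are gene read counts that the authors divided by size factors, in 5 tables of 4 libraries. Dividing by the value of 1 read gave whole reads for 100.0% of values within 0.001, and a total of 14937104 to 30328846 reads per library. A reference table of gene names gave symbols to 29566 of 31155 Ensembl identifiers, and all 32 members were found. The members and gene lists were chosen with earlier results of these data known.

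In each table, log2(value + 1) of genes with a mean of at least 10 was tested with limma 3.58.1 (R 4.3.3, two-sided, trended prior), with Benjamini-Hochberg adjustment over all genes tested. Differences between effects were contrasts over the 8 libraries of 2 tables, which were normalized separately. edgeR 4.0.16, as an alternative on the whole reads, called 9330 to 12092 genes per table. The fit was run on simulated data with few, large changes, which says nothing about small changes or about tables where most genes are called. Replicate numbers did not pair libraries. Named by rule were 10 members in every comparison, with the 3 highest and 3 lowest called members, and the 2 highest and 2 lowest called genes of each pathway list, which are given here at day 7 (heat shock genes also at day 3 of shFOXO4). The lowest synthetase genes with shSP6 at day 7 are not reported here. Promoter sequences are from RefSeq (GRCh38.p14), while the files use hg19, so no coordinates of the files are given.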

Additional observations from a re-analysis of the deposited data

Results flagged for a closer look

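These members were called in opposite directions under the same contrast in 2 settings, with the difference itself called by limma over 8 libraries at an adjusted p below 0.05. Between day 7 and day 3 of shFOXO4, the differences of the effects (day 7 minus day 3, log2) were 3.21 for DDIT4, 2.95 for VLDLR, 2.46 for ASNS, 2.25 for CHAC1, 2.10 for ATF3 and 1.86 for SLC7A11. They were 1.71 for PPP1R15A, 1.67 for PCK2, 1.01 for SHMT2, 0.97 for PDIA4 and 0.64 for PHGDH. All 11 fell at day 3 and rose at day 7. The day 3 fall of PDIA4 was small (-0.094), and its call was lost without scramble replicate 1 or 2 or shFOXO4 replicate 1. Between the days of shSP6, the differences were 1.99 for ASNS and 0.96 for ATF3, again from a fall to a rise, and the calls of both falls at day 3 were lost on leaving out shSP6 replicate 1. Between the knockdowns at day 3 (shSP6 minus shFOXO4), ATF5 differed by 1.10, PCK2 by 1.10 and PPP1R15A by 0.61. The call of the PPP1R15A rise with shSP6 was lost without shSP6 replicate 1 or 2. At day 7 CRELD2 differed by 1.88 and SDF2L1 by 1.68, with falls under shFOXO4 and rises under shSP6, and PHGDH by -0.64, with a rise under shFOXO4 and a fall under shSP6. The call of the CRELD2 fall was lost without shFOXO4 replicate 2, and that of the PHGDH fall without shSP6 replicate 2.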

How the results depend on the processing

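Counts of called members were recomputed with pseudocounts of 0.5 and 5, no filter, a mean of at least 50, TMM factors, quantile normalization, the replicate number as a block, edgeR's quasi-likelihood test on recovered reads (within tables), and without each library in turn. No change of a member that was called in the main fit or under an alternative reversed its direction. Signs of changes called in neither were not followed. Of 2142 comparisons of a member's call with its alternative, 2051 kept their side of the threshold, 55 lost a call and 36 gained one. Outside the left-out libraries, the ER members higher with shFOXO4 at day 3 numbered 1 with no filter, and those higher with shSP6 at day 3 numbered 5 with quantile normalization. Without 1 library, the ER members higher numbered 1 to 2 with shFOXO4 at day 3 and 2 to 5 with shSP6 at day 3. Members of the ATF4 arm that were lower numbered 1 to 2 with shFOXO4 at day 7, 3 to 10 with shSP6 at day 3 and 3 to 5 with shSP6 at day 7. ER members called in the difference between the knockdowns at day 3 numbered 2 to 6. The cause of these shifts was not tested. Replicate numbers were shared between groups, but same-numbered libraries did not deviate together (correlations of -0.0503 to 0.0593), so the number does not pair them. With the replicate block, the ATF4 arm had 16 higher and 2 lower with shFOXO4 at day 7, and 17 higher and 5 lower with shSP6 at day 7. The block changed no other count by more than 1.5 times. The number of reads sets what can be seen of members with low values, such as DDIT3 at 17.2 and 15 and ALDH1L2 at 7.64 and 36.0 in the scramble libraries of the FOXO4 set at day 7, where the SE was 0.25 and 0.56.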

Other observations

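Stress genes outside the ATF4 and ER pathways were counted in the same way, to be read beside the shares of all tested genes. At day 3 these shares were 31.8% higher and 30.8% lower with shFOXO4 and 28.3% higher and 27.5% lower with shSP6. At day 7 the shares were 37.1% higher and 35.4% lower with shFOXO4 and 29.0% higher and 29.6% lower with shSP6. At SE day 3, 35.2% of all tested genes were higher and 37.0% lower. Of 11 heat shock genes, 9 were higher and 1 lower with shFOXO4 at day 3 (median 0.50), while most of the ATF4 arm was lower there, with HSPD1 (0.96) and HSPA1B (0.86) highest and HSPB1 (-0.17) lowest. At day 7 the counts were 6 higher and 2 lower with shFOXO4, with HSPA1A (1.62) and HSPB1 (0.86) highest and HSPA8 (-1.41) and HSPH1 (-0.40) lowest, and 6 higher and 3 lower with shSP6, with HSP90AA1 (0.56) and HSPE1 (0.53) highest and DNAJB1 (-0.61) and HSPB1 (-0.41) lowest. They were 5 higher and 2 lower with shSP6 at day 3 and 5 higher and 5 lower at SE day 3. Of 10 NRF2 target genes of the oxidative stress response, 8 were higher and 1 lower with shSP6 at day 7 (median 0.64), with NQO1 (2.73) and OSGIN1 (1.10) highest and GCLC (-0.41) lowest. With shFOXO4 at day 7, 4 were higher and 1 lower (median 0.015), with OSGIN1 (1.49) and SRXN1 (1.18) highest and HMOX1 (-0.68) lowest. NQO1, a quinone reductase, went from 242 and 231 to 1436 and 1740.4 with shSP6 (2.73 ± 0.12) and from 227 and 269 to 394 and 444 with shFOXO4 (0.76 ± 0.13). At day 3 the NRF2 counts were 4 higher and 2 lower with shFOXO4 and 3 higher and 3 lower with shSP6, of 9 tested, and at SE day 3 they were 3 higher and 3 lower.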
